A study of Saccharomyces cerevisiae with 8 samples.

Results

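The sulfate assimilation and methionine synthesis genes of budding yeast (Saccharomyces cerevisiae) are described here across the 8 libraries of a total RNA sequencing experiment. The group holds 34 genes out of 10799 yeast features in the deposited table. They were listed by systematic name for their known roles, but with earlier results of these data known, so the choice was not blind to the data. They cover sulfate uptake, sulfate reduction, the synthesis of homocysteine, methionine, cysteine and S-adenosylmethionine, the uptake of methionine and its derivatives, and the regulators around the activator Met4. Of the 34 genes, 33 passed the filter on low values. The sulfate transporter gene SUL1 did not.

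All 8 libraries were made from W303 cells of mating type α grown in rich medium (YPD) at 30°C to mid-log phase, and every strain carried tor1-1, fpr1::NAT and RPL13A-2×FKBP12::TRP1. The background had the marker alleles his3-11,15 and the joint leu2-3 and leu2-112, with ura3, trp1-1 and ade 2-1, the resistance allele can1-100, GAL and psi+. The 4 groups of 2 libraries were parental cells without rapamycin, parental cells with rapamycin, Dbp2-FRB-GFP cells without it and Dbp2-FRB-GFP cells with it, the drug being given at 1 µg/mL for 1 h. The Dbp2-FRB-GFP strain carries in addition DBP2-FRB-GFP-KanMX6, a tag on the gene of the RNA helicase Dbp2, which the source label gives and the genotype field leaves out. The experiment addresses long noncoding RNAs that the exonuclease Xrn1 degrades, and what becomes of them when Dbp2 is taken out of the nucleus.

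In the anchor-away system, rapamycin joins an FRB-tagged nuclear protein to FKBP12 on the ribosomal protein Rpl13A, which leaves the nucleus with new ribosomal subunits. The tor1-1 allele and the loss of FPR1 make the cells resistant to the drug itself. The feature FPR1, labelled fpr1::NAT in every strain, had densities of 0.102 to 0.151, from 74 to 122 reads per library. The origin of these reads was not tested. DBP2 itself had densities of 2.42 and 2.61 in untreated parental cells, 3.05 and 3.03 in untreated tagged cells, 2.29 and 2.59 in parental cells with rapamycin, and 4.33 and 2.86 in tagged cells with rapamycin. The DBP2 transcript does not report where the protein is, so depletion was not measured here. The strains differ by the tag and by anything else that separates them, and the labels do not say whether either stands for more than 1 clone. An effect of the tag and another strain difference cannot be told apart, and p-values cover the spread between these libraries, which are not described as separate cultures.

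Yeast takes up sulfate, activates it with ATP and reduces it to sulfide. The enzyme Met17 joins sulfide to an activated homoserine to make homocysteine, which is methylated to methionine and can be turned into cysteine. Methionine is activated to S-adenosylmethionine, the methyl donor of the cell. Most genes of the pathway are known targets of Met4, an activator that binds DNA through Cbf1 and through the zinc finger proteins Met31 and Met32, and that is held inactive by the ubiquitin ligase of the F-box protein Met30 when sulfur amino acids are plentiful.

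The DNA words that these partners are known to bind lie upstream of many of the genes, and the stretches that hold them are shown first for 8 of the genes, 7 of them lower in tagged cells with and without rapamycin, and MET10 for its several words. They were read from the R64 reference genome (RefSeq), within 500 bases before the start codon, 5′ to 3′ on the strand of the gene. Capitals mark the Cbf1 word CACGTG, which reads the same on both strands, and the Met31 and Met32 word TGTGGC or its complement GCCACA.

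MET2, chrXIV:116981-117043, plus strand: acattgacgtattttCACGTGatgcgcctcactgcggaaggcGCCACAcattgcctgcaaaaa
MET17, chrXII:732227-732262, plus strand: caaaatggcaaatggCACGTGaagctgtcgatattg
MET6, chrV:342642-342667, minus strand: tatttCACGTGacttacaaacagagt
SAM2, chrIV:1454740-1454802, minus strand: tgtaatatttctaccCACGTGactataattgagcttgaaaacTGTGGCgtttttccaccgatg
SUL2, chrXII:323195-323276, plus strand: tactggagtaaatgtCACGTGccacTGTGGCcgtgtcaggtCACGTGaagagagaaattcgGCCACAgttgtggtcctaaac
MET14, chrXI:439557-439628, minus strand: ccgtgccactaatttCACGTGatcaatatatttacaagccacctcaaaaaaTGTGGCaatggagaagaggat
MET10, chrVI:213048-213127, plus strand: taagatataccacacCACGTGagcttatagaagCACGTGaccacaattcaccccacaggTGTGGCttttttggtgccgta
MHT1, chrXII:17744-17803, minus strand: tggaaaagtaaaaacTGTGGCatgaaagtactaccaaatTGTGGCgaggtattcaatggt

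The MHT1 stretch lies in the 342 bases between the coding parts of MHT1 and MMP1, which are transcribed away from each other, so the same bases lie upstream of both genes. Of the 34 members, 21 (61.8%) held the Cbf1 word in the window, against 374 of 6000 protein-coding genes (6.23%). The Met31 and Met32 word was found upstream of 22 members (64.7%), against 854 of 6000 genes (14.2%). Both words lay upstream of 15 members (44.1%), against 69 of 6000 genes (1.15%). The word TGACTC of the general amino acid control activator Gcn4, counted on both strands, lay upstream of 11 members (32.4%), against 759 genes (12.7%). No Cbf1 word overlapped a Met31 and Met32 word upstream of a member. A word is a match of letters and not a measured binding site.

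Depth ranged from 22520514 to 27497232 yeast reads per library, and the 92 spike-in RNAs added between 747342 and 1267030 reads, or 2.94 to 4.44% of each library. Densities are reads per nucleotide after the authors' scaling to these spike-ins, and on this scale the median of all 9656 tested features was 0.36 higher (log2) in tagged than in parental cells without rapamycin and 0.59 higher with it. Scaled instead to protein-coding features, these medians were 0.13 and 0.13. A shift of the whole transcriptome moves every gene, so counts that depend on it are given on both scales. In these bulk samples a lower level in every cell and a lower number of cells with the transcript cannot be told apart. Of the 4 marker genes of mating type α, the pheromone gene MF(ALPHA)2 differed most (−3.32 ± 0.13, log2 fold change ± SE, without rapamycin). The summed density of the 4 was 52.8 to 57.6 in untreated parental cells, 31.6 to 35.8 in untreated tagged cells, 55.4 to 57.5 in parental cells with rapamycin and 28.8 to 33.8 in tagged cells with rapamycin. Without MF(ALPHA)2, the sum of the other 3 was 27.1 to 30.7, 29.1 to 33.0, 29.5 to 30.6 and 27.2 to 32.1 in the same order, with overlapping groups. MF(ALPHA)1 made up most of that sum, at 21.1 to 27.8. SAG1 had densities of 3.09 and 3.17 in untreated parental and 2.24 and 1.98 in untreated tagged cells. With rapamycin SAG1 had 3.59 and 3.05 against 2.01 and 1.88, again without overlap. By the limma fit below, 2 of the 4 were called lower and 0 higher both without and with rapamycin. Scaled to protein-coding features, 3 were lower without rapamycin and 4 with it. The summed density of 6 genes of the other mating type was 0.222 to 0.251, 0.385 to 0.444, 0.190 to 0.262 and 0.573 to 0.663 in the same groups. Of these only MFA1 was listed at 0 in a library, parental with rapamycin replicate 2. Without rapamycin 4 of the 6 were called higher and with it 5, where 43.7 and 70.5% of all features were, and 0 were lower. On the protein-coding scale 1 and 3 were higher, where 28.7 and 30.7% of all features were. MFA1, MFA2 and AGA2 had at most 34 reads in a library. The part of these differences in the results on sulfur genes was not tested.

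Without rapamycin, 17 of the 33 tested members were lower in Dbp2-FRB-GFP than in parental cells and 2 were higher, by limma on log2(density + 0.00721) with a Benjamini-Hochberg adjusted p under 0.05. Over all 9656 features 2.75% were called lower and 43.7% higher. Before the filter 5916 features were protein-coding genes, and all members are among them. The shares of all features given here also cover features that are not protein-coding. Shares among protein-coding genes alone were not computed. With rapamycin, 14 members were lower and 8 higher, where 2.13% of all features were called lower and 70.5% higher. The median log2 fold change of the tested members was −0.38 without and −0.23 with rapamycin, against 0.36 and 0.59 for all features. The protein-coding scale gave 26 lower and 1 higher without rapamycin, where 14.4 and 28.7% of all features were called, and 25 lower and 1 higher with it, where 18.1 and 30.7% were called. The comparison without rapamycin and the one with it set different libraries against each other. Both take their spread from the same fit of all 8 libraries, so their calls are not independent. In both, 14 genes were lower, which is 14 of the 17 and 14 of the 14. Over all features 1.87% were lower in both. When scaled to protein-coding reads, 24 members were lower in both, where 13.0% of all features were. The 14 were SUL2, MET3, MET14, MET5, MET2, MET17, MET6, CYS3, STR3, SAM1, SAM2, MHT1, MUP1 and SAM3. None of the genes called lower on the spike-in scale was a regulator, and on the protein-coding scale 2 of the 6 regulators were lower without rapamycin and 3 with it.

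**Figure D1:**
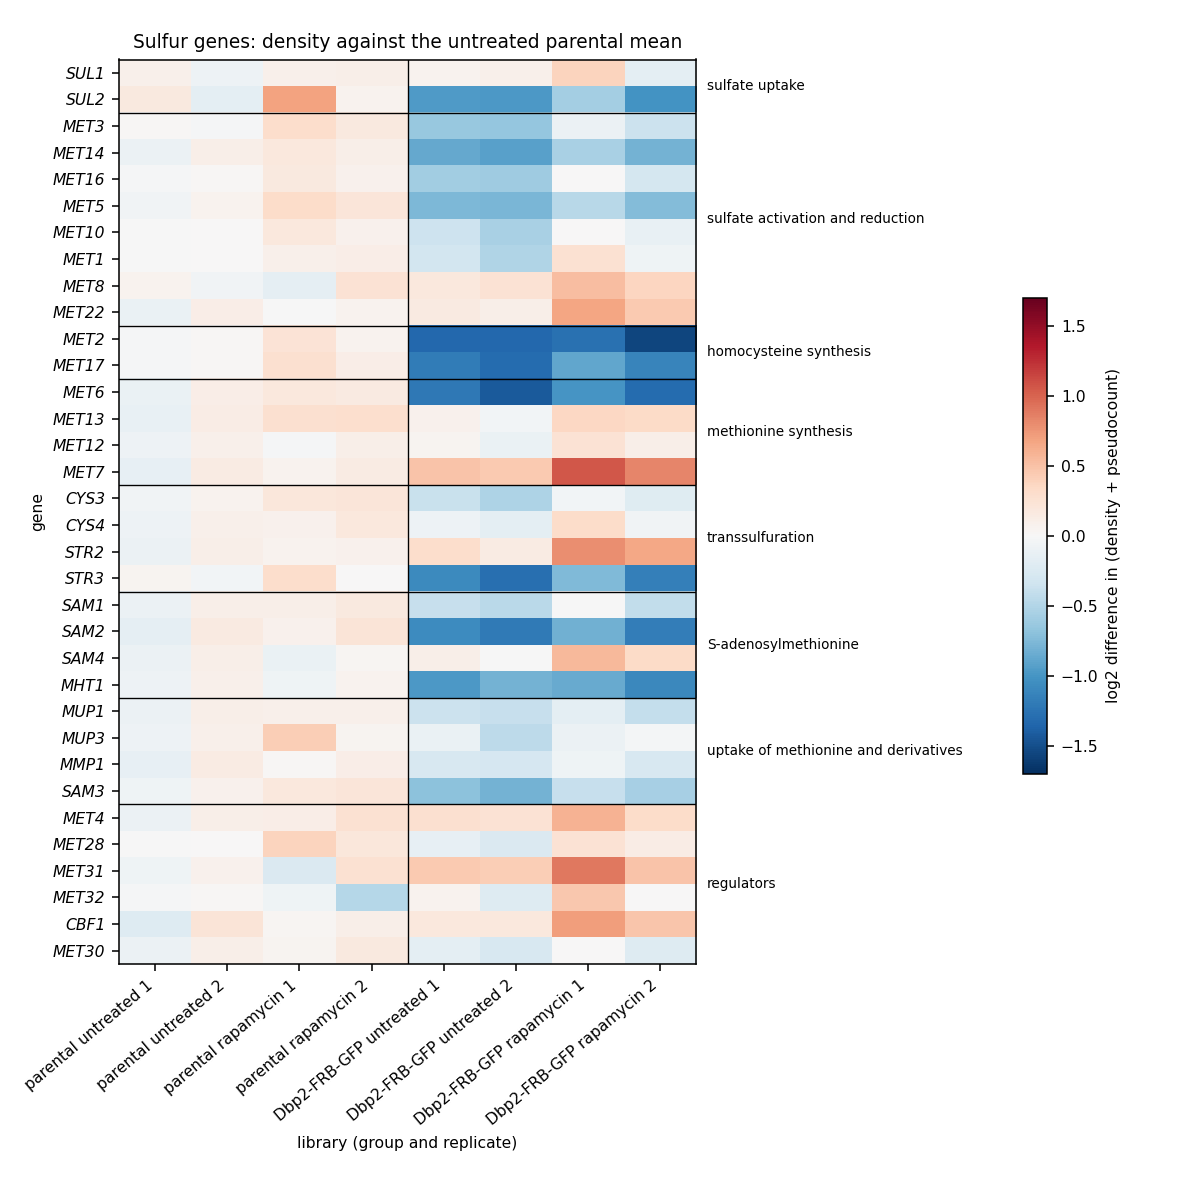
Density of each of the 34 genes (rows, by role) in each of the 8 libraries (columns) as the log2 difference from the mean of the 2 untreated parental libraries, with blue lower and red higher. The 4 tagged libraries on the right are blue across MET2, MET17, MET6, STR3, SAM2, MHT1 and SUL2, and red across MET7 and MET31.

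Compared library by library, 12 members lay lower in all 4 tagged libraries than in all 4 parental libraries, with or without rapamycin. Over all features 1.93% did so. The 12 were the genes lower in both comparisons except CYS3 and SAM1. A further 3 members, MET7, STR2 and MET31, lay higher in all 4 tagged libraries, where 58.0% of all features did.

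Sulfate enters through Sul1 and Sul2. SUL2 (YLR092W, chrXII:323544-326225, plus strand) had densities of 0.0495 and 0.0378 in untreated parental cells and 0.0186 and 0.0184 in untreated tagged cells. With rapamycin it had 0.0740 and 0.0455 in parental cells and 0.0268 and 0.0178 in tagged cells. No tagged library reached the lowest parental one. The log2 fold change was −0.97 ± 0.23 (SE, adjusted p = 0.00169) without rapamycin and −1.17 ± 0.23 (adjusted p = 0.000163) with it, from 38 to 198 reads per library. SUL1 (YBR294W) was among the least abundant coding genes, at rank 5723 of 5916. Its densities were 0.0101, 0.00816, 0.00977, 0.010, 0.0102, 0.0103, 0.0140 and 0.00735 in parental untreated, tagged untreated, parental rapamycin and tagged rapamycin libraries in turn. These rest on 15 to 35 reads, the groups overlapped, and the gene was not tested.

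Sulfate is activated by ATP sulfurylase (MET3) and by the adenylylsulfate kinase (MET14), reduced to sulfite by the reductase of MET16 and then to sulfide by sulfite reductase, whose subunits are encoded by MET5 and MET10. MET1 and MET8 make the siroheme of that enzyme, and MET22 removes a phosphorylated nucleotide by-product. Of these 8 genes, 6 were lower without rapamycin and none was higher, where 2.75% of all features were lower and 43.7% higher. With rapamycin 3 were lower and 2 higher, where 2.13 and 70.5% of all features were. Of the 8, 7 were lower on the protein-coding scale without and 6 with rapamycin, and none was higher. Over all features 14.4 and 18.1% were lower on that scale, and 28.7 and 30.7% higher. MET14 (YKL001C, chrXI:438777-439385, minus strand) had densities of 0.661 and 0.756 in untreated parental and 0.382 and 0.368 in untreated tagged cells. With rapamycin the pairs were 0.800 and 0.756 against 0.479 and 0.403. The strains did not overlap, and the log2 fold changes were −0.90 ± 0.15 (adjusted p = 5.24e-05) and −0.81 ± 0.15 (7.12e-05).

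MET5 (YJR137C), encoding the β subunit of sulfite reductase, had densities of 0.563 and 0.614 in untreated parental and 0.343 and 0.339 in untreated tagged cells, and 0.734 and 0.680 against 0.421 and 0.350 with rapamycin. The tagged libraries were the 4 lowest, with log2 fold changes of −0.77 ± 0.15 (adjusted p = 0.000272) and −0.87 ± 0.15 (3.58e-05). The α subunit gene MET10 (YFR030W, chrVI:213312-216419), which has 2 Cbf1 words and a Met31 and Met32 word in the stretch above, gave 0.638 and 0.640 against 0.498 and 0.432 without rapamycin, and 0.724 and 0.672 against 0.642 and 0.585 with it. Its fold change was called without rapamycin (−0.45 ± 0.14, adjusted p = 0.0137), but not without tagged untreated replicate 2 (0.197), and was −0.19 ± 0.14 (0.244) with rapamycin.

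MET3 (YJR010W) had densities of 0.356 and 0.344 in untreated parental and 0.222 and 0.220 in untreated tagged cells, and 0.433 and 0.393 against 0.327 and 0.271 with rapamycin. It was lower by −0.65 ± 0.15 (adjusted p = 0.0015) and −0.46 ± 0.15 (0.00984) on the log2 scale. The second call was lost without parental rapamycin replicate 1 (0.11) and without tagged rapamycin replicate 2 (0.0794). MET16 (YPR167C) had 0.160 and 0.166 against 0.106 and 0.105 without rapamycin, a fold change of −0.59 ± 0.16 (0.00446), and 0.184 and 0.171 against 0.164 and 0.131 with it (−0.27 ± 0.16, 0.133).

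The siroheme genes and MET22 followed other courses. MET1 (YKR069W) was at 0.122 and 0.123 in untreated parental and 0.0969 and 0.0838 in untreated tagged cells, just under the threshold (−0.41 ± 0.16, adjusted p = 0.0461). That call was lost on leaving out any of 6 libraries, with adjusted p of 0.126 and 0.0946 without untreated parental replicates 1 and 2, 0.0839 and 0.291 without the tagged ones, and 0.0545 and 0.0544 without parental rapamycin replicates 1 and 2. With rapamycin MET1 had 0.129 and 0.132 against 0.148 and 0.115, and the groups overlapped (−0.00 ± 0.16, 0.988). MET8 (YBR213W) rested on 61 to 97 reads and was not called without rapamycin (0.22 ± 0.18, 0.319). With rapamycin it was at the threshold (0.39 ± 0.18, 0.05), with densities of 0.0575 and 0.0777 against 0.0958 and 0.0849, and the call was lost without parental rapamycin replicate 1 (0.20, 0.463), tagged rapamycin replicate 1 (0.205) or either untreated tagged replicate (0.0663 and 0.0663). MET22 (YOL064C) was higher in tagged cells with rapamycin, at 2.30 and 1.96 against 1.44 and 1.5 (0.53 ± 0.14, 0.00242), and was 0.13 ± 0.14 (0.477) without it. On the protein-coding scale MET8 (−0.06) and MET22 (0.04) were not called with rapamycin, and MET22 was lower without it (−0.13, 0.0276). MET1 (−0.47, 0.00857), MET10 (−0.67, 0.00104) and MET16 (−0.74, 0.000793) were called lower with rapamycin on that scale.

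Homocysteine is made by homoserine O-acetyltransferase (MET2) and by O-acetylhomoserine sulfhydrylase (MET17). Both were lower in tagged cells with and without rapamycin. MET2 (YNL277W, chrXIV:117349-118809, plus strand) had densities of 0.186 and 0.192 in untreated parental and 0.0709 and 0.0710 in untreated tagged cells, and 0.224 and 0.198 against 0.0740 and 0.0593 with rapamycin. The 4 tagged libraries lay well under the 4 parental ones, at 77 to 410 reads over all libraries. MET2 was 2.51-fold lower without rapamycin (−1.33 ± 0.16, adjusted p = 1.65e-06) and 2.96-fold lower with it (−1.57 ± 0.16, 8.72e-08), the lowest fold change of the members in both comparisons.

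MET17 (YLR303W, chrXII:732542-733876, plus strand) had densities of 9.59 and 9.86 in untreated parental and 4.25 and 3.91 in untreated tagged cells. With rapamycin it had 11.8 and 10.5 against 5.25 and 4.46. Every tagged library was under every parental one, and the gene was 2.38-fold (−1.25 ± 0.13, 2.68e-07) and 2.30-fold lower (−1.20 ± 0.13, 1.96e-07). The annotation places the small gene YLR302C across MET17, and its densities ran from 0 to 0.021 (0 to 8 reads). The kit marks strand, but whether reads were counted by strand is not stated in the labels.

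**Figure D2:**
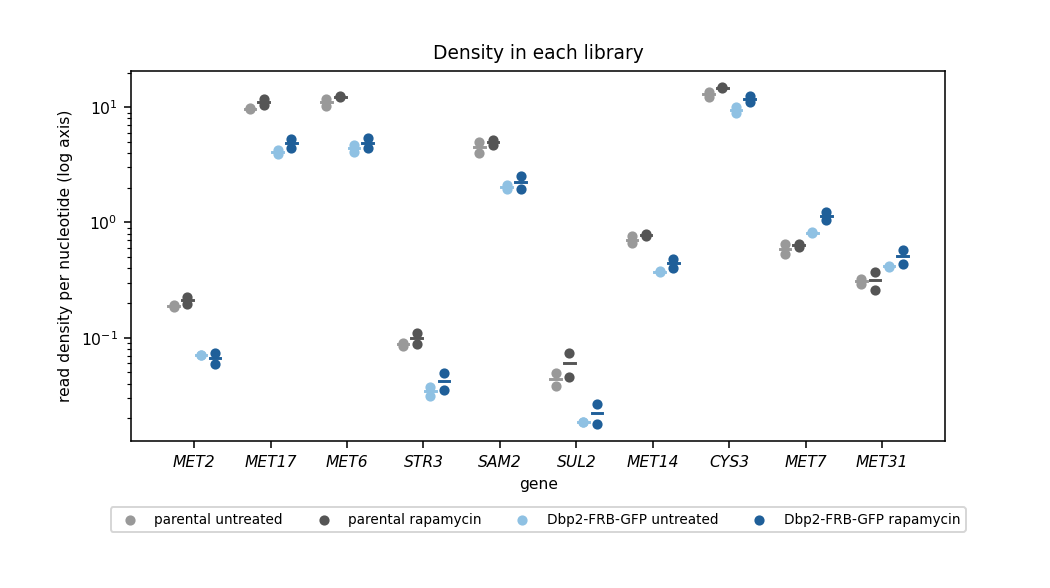
Read density per nucleotide (log axis) of 10 genes in each library, with points for the 2 libraries of a group and bars for their mean. MET2 and MET17 differ widely in level, at 0.189 and 9.72 in untreated parental cells, and both lie lower in the 2 tagged groups, while MET7 lies higher there.

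Methionine synthase (MET6) methylates homocysteine with a folate that carries several glutamates. Met12 and Met13 are reductases that make the methyl form of that folate, and the folylpolyglutamate synthetase Met7 adds the glutamates. MET6 (YER091C, chrV:339864-342167, minus strand) had densities of 10.2 and 11.9 in untreated parental and 4.75 and 4.07 in untreated tagged cells, and 12.4 and 12.3 against 5.46 and 4.42 with rapamycin. The highest tagged library lay under the lowest parental one, and the gene was 2.50-fold (−1.32 ± 0.14, adjusted p = 2.66e-07) and 2.51-fold lower (−1.33 ± 0.14, 1.07e-07).

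The folate genes did not follow MET6. MET13 (YGL125W) ranged from 0.532 to 0.745 and MET12 (YPL023C) from 0.766 to 0.981 over the 8 libraries, and neither was called (MET13 0.02 ± 0.14 and 0.07 ± 0.14, MET12 −0.03 ± 0.14 and 0.13 ± 0.14, without and with rapamycin). On the protein-coding scale both were called lower, MET13 by −0.23 (0.0313) and −0.42 (0.00213) and MET12 by −0.28 (0.00506) and −0.36 (0.00138). MET7 (YOR241W) had 0.535 and 0.649 in untreated parental and 0.829 and 0.803 in untreated tagged cells, and 0.613 and 0.652 against 1.24 and 1.06 with rapamycin. It was higher by 0.46 ± 0.15 (0.0141) and 0.85 ± 0.15 (4.80e-05), close to the shift of all features, and was the only member called higher on the protein-coding scale (0.21, 0.00596 and 0.36, 0.000462). Without rapamycin the MET7 call was lost on leaving out parental replicate 1 (0.33, 0.144), tagged replicate 1 (0.109) or tagged replicate 2 (0.067).

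Transsulfuration runs from homocysteine to cysteine through Cys4 and Cys3 and back through Str2 and Str3. On the spike-in scale the genes of the last enzyme of each direction, CYS3 and STR3, were called lower, and those of the first were not. CYS3 (YAL012W), encoding cystathionine γ-lyase, had densities of 12.3 and 13.5 in untreated parental and 9.97 and 9.0 in untreated tagged cells, and 14.8 and 14.9 against 12.5 and 11.2 with rapamycin. The groups did not overlap within a treatment, and the changes were −0.45 ± 0.13 (adjusted p = 0.00669) and −0.33 ± 0.13 (0.026). The first call was lost without tagged untreated replicate 2 (0.111) and the second on leaving out any of 5 libraries (0.0508 to 0.128: either tagged untreated replicate, either parental rapamycin replicate, or tagged rapamycin replicate 2). CYS4 (YGR155W), encoding cystathionine β-synthase, ranged from 6.14 to 8.59 and was not called (−0.13 ± 0.14 and 0.00 ± 0.14). CYS4 was called lower on the protein-coding scale (−0.38, 0.00112 and −0.49, 0.000256).

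STR3 (YGL184C, chrVII:154615-156012, minus strand), encoding cystathionine β-lyase, which yields homocysteine, had densities of 0.0901 and 0.0845 in untreated parental and 0.0375 and 0.0315 in untreated tagged cells. With rapamycin it had 0.109 and 0.0878 against 0.0490 and 0.0352. It was lower in each tagged library, 2.27-fold (−1.18 ± 0.19, adjusted p = 3.95e-05) and 2.15-fold (−1.11 ± 0.19, 3.70e-05), from 51 to 222 reads. STR2 (YJR130C), encoding cystathionine γ-synthase, had 0.185 and 0.213 against 0.247 and 0.220 without rapamycin (0.22 ± 0.15, 0.227) and 0.206 and 0.210 against 0.349 and 0.317 with it (0.66 ± 0.15, 0.000729). On the protein-coding scale STR2 was not called (−0.02 and 0.17).

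S-adenosylmethionine is made by the synthetases Sam1 and Sam2, and the methyltransferases Sam4 and Mht1 use it, or S-methylmethionine, to turn homocysteine into methionine. SAM2 (YDR502C, chrIV:1453310-1454464, minus strand) had densities of 4.01 and 4.94 in untreated parental and 2.11 and 1.94 in untreated tagged cells, and 4.70 and 5.20 against 2.52 and 1.96 with rapamycin. It was 2.2-fold (−1.14 ± 0.15, adjusted p = 4.19e-06) and 2.22-fold lower (−1.15 ± 0.15, 1.55e-06) and did not overlap between strains. SAM1 (YLR180W, chrXII:515262-516410), the more abundant of the pair, had 12.4 and 14.2 against 10.1 and 9.69, and 14.3 and 15.0 against 13.3 and 9.97. Its changes were −0.43 ± 0.14 (0.0161) and −0.35 ± 0.14 (0.0295). The first was lost without parental untreated replicate 2 (0.096) or either tagged untreated replicate (0.0545 and 0.091). The second was lost without parental rapamycin replicates 1 (0.0746) or 2 (0.133) or tagged rapamycin replicate 2 (−0.14, 0.365).

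MHT1 (YLL062C, chrXII:16639-17613, minus strand) had densities of 0.190 and 0.214 in untreated parental and 0.0990 and 0.113 in untreated tagged cells, and 0.191 and 0.210 against 0.108 and 0.0909 with rapamycin. The strains did not overlap (−0.89 ± 0.16, adjusted p = 0.000152 and −0.97 ± 0.16, 2.54e-05). SAM4 (YPL273W) had 2.59 and 2.96 against 2.96 and 2.77 without rapamycin (0.05 ± 0.14, 0.795) and 2.56 and 2.84 against 4.07 and 3.47 with it (0.48 ± 0.14, 0.00452). The SAM4 call did not hold when parental rapamycin replicate 1 was left out (0.083) or on the protein-coding scale (−0.02, 0.765).

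Methionine enters through the permeases Mup1 and Mup3, S-methylmethionine through Mmp1 and S-adenosylmethionine through Sam3. SAM3 (YPL274W, chrXVI:22938-24701) had densities of 1.97 and 2.19 in untreated parental and 1.28 and 1.19 in untreated tagged cells, and 2.36 and 2.38 against 1.57 and 1.41 with rapamycin. It was lower in every tagged library (−0.75 ± 0.14, adjusted p = 0.000178 and −0.67 ± 0.14, 0.000243). MUP1 (YGR055W), the high-affinity permease, had 4.30 and 4.89 against 3.57 and 3.49, and 4.86 and 4.85 against 4.10 and 3.45. It was lower by −0.38 ± 0.13 (0.0267) and −0.37 ± 0.13 (0.0196) without overlap. The first MUP1 call was lost without parental untreated replicate 2 (0.124), tagged untreated replicates 1 (0.125) or 2 (0.154) or either parental rapamycin replicate (0.0525 and 0.0525), and the second without parental rapamycin replicates 1 (0.111) or 2 (0.1) or tagged rapamycin replicate 2 (−0.24, 0.132). MUP3 (YHL036W) was not called (−0.28 ± 0.16 and −0.31 ± 0.16), nor was MMP1 (YLL061W; −0.28 ± 0.15 and −0.23 ± 0.15), although both were called lower on the protein-coding scale (MUP3 −0.53 and −0.79, MMP1 −0.53 and −0.73).

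None of the 6 regulators was lower on the spike-in scale. MET4 (YNL103W), the activator, had densities of 0.303 and 0.346 in untreated parental and 0.392 and 0.386 in untreated tagged cells, and 0.352 and 0.390 against 0.494 and 0.406 with rapamycin. It was not called (0.26 ± 0.15, adjusted p = 0.165 and 0.27 ± 0.15, 0.115). MET31 (YPL038W) had 0.293 and 0.324 against 0.423 and 0.412, and 0.259 and 0.371 against 0.581 and 0.434. It was called higher (0.43 ± 0.17, 0.0471 and 0.68 ± 0.17, 0.0017). The first MET31 call was lost without any 1 of the 4 untreated libraries (0.212 and 0.0556 without the parental, 0.151 and 0.105 without the tagged), and the second without parental rapamycin replicate 1 (0.43, 0.0783).

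MET32 (YDR253C), the related zinc finger gene, rested on 40 to 73 reads and was called with rapamycin (0.51 ± 0.20, adjusted p = 0.0244) but not without it (−0.08 ± 0.20, 0.759). Leaving out parental rapamycin replicate 2 (0.30, 0.248) or tagged rapamycin replicate 1 (0.28, 0.272) ended the MET32 call. CBF1 (YJR060W) had 0.372 and 0.503 against 0.489 and 0.491 without rapamycin (0.18 ± 0.16, 0.368) and 0.443 and 0.464 against 0.715 and 0.602 with it (0.53 ± 0.16, 0.00582). MET28 (YIR017C), encoding a cofactor of the Met4 complex, ranged from 0.0818 to 0.130 and MET30 (YIL046W) from 0.273 to 0.374, and neither was called (MET28 −0.19 ± 0.16 and −0.09 ± 0.16, MET30 −0.22 ± 0.15 and −0.21 ± 0.15). On the protein-coding scale MET31, MET32 and CBF1 were not called in either comparison, and MET28 (−0.43 and −0.56) and MET30 (−0.47 and −0.70) were called lower in both, as was MET4 with rapamycin (−0.22).

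**Figure D3:**
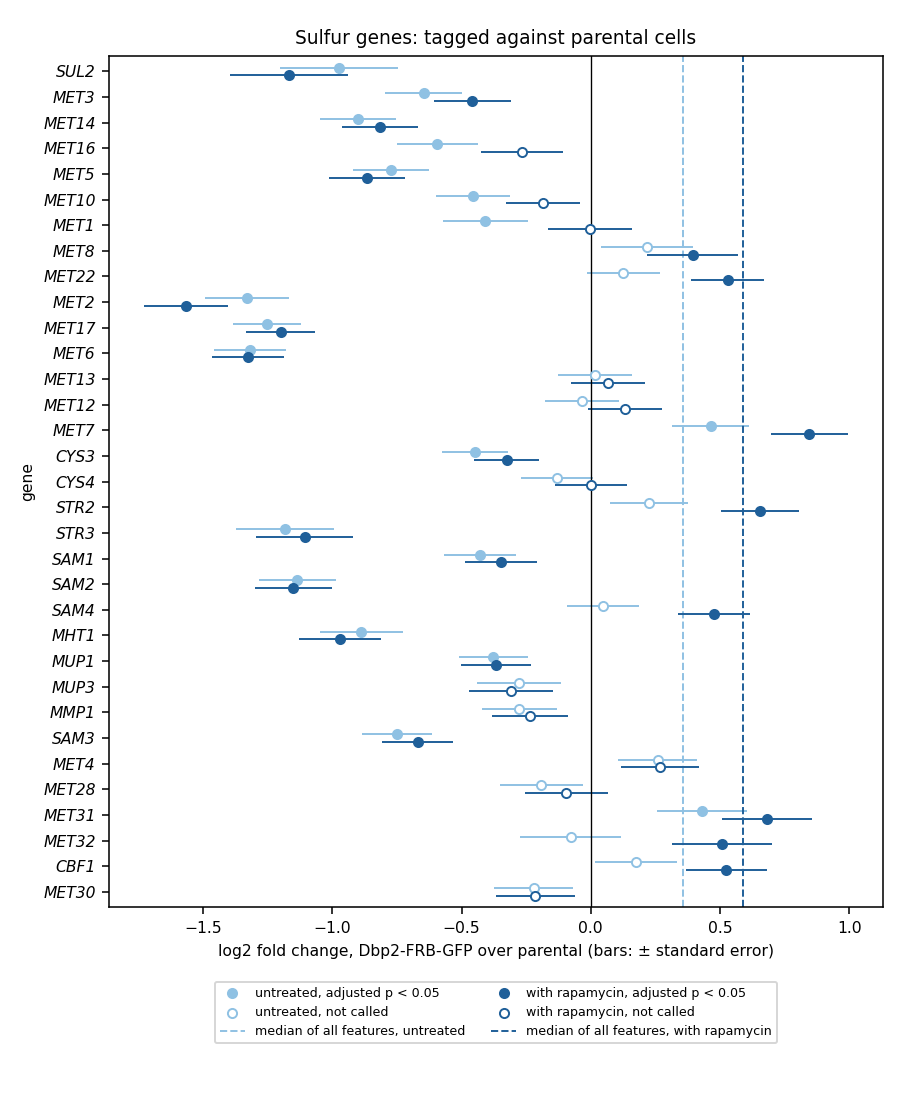
Log2 fold change of the 33 tested genes, Dbp2-FRB-GFP over parental, without rapamycin (light) and with it (dark), with bars of 1 standard error, filled points for adjusted p under 0.05 and dashed lines for the median of all features (0.36 and 0.59). MET2, MET6, MET17, STR3 and SAM2 lie between −1.57 and −1.11, and MET7 and MET31 lie to the right of both dashed lines for their treatment.

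Related genes with like products allow a comparison within each library, which no scaling of a library can move. Over 7 such pairs, the ratio of densities was compared between the 4 tagged and the 4 parental libraries. A two-sided exact permutation test was used on its log2, with a smallest possible p of 0.0286. The test moves libraries freely across treatments, so it counts the 2 untreated and 2 rapamycin libraries of a strain as 4 alike. These are not replicates of 1 condition, and the exact p makes no allowance for treatment. Within 1 treatment, 2 against 2 libraries cannot give an exact p under 0.333. The SAM2 to SAM1 ratio was 0.323, 0.347, 0.328 and 0.347 in the parental libraries (untreated, then with rapamycin) and 0.209, 0.20, 0.190 and 0.197 in the tagged ones. The difference was −0.76 on the log2 scale (exact p = 0.0286, adjusted over 7 pairs 0.05), and was −0.71 without and −0.80 with rapamycin. SAM1 and SAM2 share 83.2% of aligned coding bases with an identical run of 59 bases, and the labels do not say how reads matching both were counted, so their separate values are less certain than those of the other genes.

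The MHT1 to SAM4 ratio was 0.0724 to 0.0748 in the parental and 0.0262 to 0.0409 in the tagged libraries (−1.24, exact p = 0.0286, adjusted 0.05). The SUL2 to SUL1 ratio was 4.43 to 7.26 against 1.83 to 2.42 (−1.38, exact p = 0.0286, adjusted 0.05), with SUL1 resting on few reads. The MMP1 to SAM3 ratio was higher in tagged cells, at 0.511 to 0.60 against 0.372 to 0.435 in the parental libraries (0.45, exact p = 0.0286, adjusted 0.05). Without and with rapamycin the differences were −1.35 and −1.40 for SUL2 to SUL1, and 0.47 and 0.44 for MMP1 to SAM3. In these 4 pairs the strains did not overlap. These 3 further pairs share 68.1% (MHT1 and SAM4), 69.1% (SUL1 and SUL2) and 70.4% (MMP1 and SAM3) of aligned coding bases.

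The remaining pairs overlapped between strains. The MUP3 to MUP1 ratio differed by 0.07 (exact p = 0.657), that of MET13 to MET12 by −0.01 (0.943) and that of MET32 to MET31 by −0.33 (0.171, adjusted 0.24). The MET32 to MET31 ratio was 0.125 to 0.249 in the parental libraries, whose spread (SD 0.447, log2, n = 4) exceeded the difference.

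**Figure D4:**
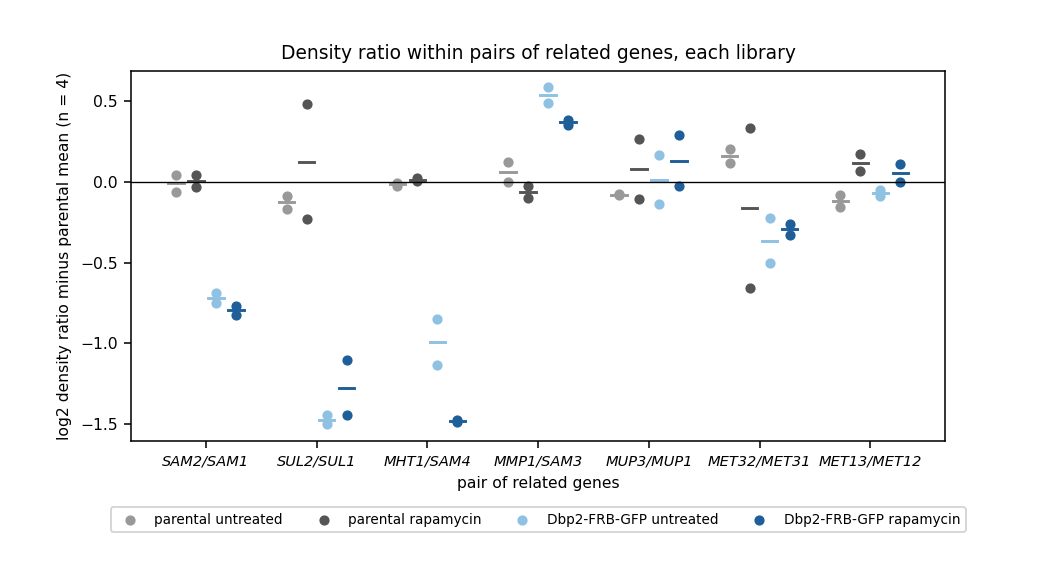
Log2 density ratio within 7 pairs of related genes in each library, minus the mean of the 4 parental libraries, with bars for the mean of each group of 2. SAM2/SAM1, SUL2/SUL1 and MHT1/SAM4 lie lower and MMP1/SAM3 higher in all 4 tagged libraries, and the other 3 pairs overlap.

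The tor1-1 fpr1 background was also compared with and without rapamycin. Untreated libraries are listed at 0 h and those with rapamycin at 1 h, so the drug and elapsed time cannot be told apart. In parental cells none of the 33 tested members was called by limma (background 0.0104% lower and 0.0207% higher), none had an unadjusted p under 0.05, and limma-voom on the recovered reads, an alternative chosen after seeing the data, called 0. The fold changes ran from −0.28 (MET32) to 0.37 (SUL2) with a median of 0.13, against 0.10 for all features. In Dbp2-FRB-GFP cells 0 were lower and 4 higher, where 0.145 and 13.7% of all features were called. These were MET1 (0.50 ± 0.16, adjusted p = 0.047), STR2 (0.50 ± 0.15, 0.0406), MET7 (0.48 ± 0.15, 0.0409) and MET22 (0.43 ± 0.14, 0.0482), and the median of the members was 0.25 against 0.32 for all features. None of the 4 was called on the protein-coding scale, where 0.0518% of all features were called higher (0.13, 0.08, 0.15 and 0.17 for MET7, MET22, STR2 and MET1), and each call was lost without either tagged untreated replicate and without tagged rapamycin replicate 1. On leaving out 1 library the adjusted p rose as high as 0.323 for MET1, 0.313 for STR2, 0.312 for MET22 and 0.286 for MET7. The rapamycin comparisons use the same libraries as the strain comparisons, so these values are not independent.

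The difference between the strains in their response to rapamycin was tested as an interaction. No member was called by limma (background 0.0104% lower and 0.0311% higher), the lowest adjusted p was 0.504, and limma-voom called 0. SAM4 (0.43 ± 0.20) and MET32 (0.59 ± 0.28) had an unadjusted p under 0.05. MET1, MET10 and MET16, which were called lower without rapamycin and not with it, are therefore not shown to differ between the conditions, and all 3 were called lower with rapamycin on the protein-coding scale.

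The upstream words divide the 34 genes into 4 classes. Without rapamycin 2.75% of all features were called lower and 43.7% higher, with a median of 0.36, and with it 2.13% and 70.5%, with a median of 0.59. Of the 15 with both words, 9 were lower and 0 higher in tagged cells without rapamycin (median −0.45). Of the 6 with the Cbf1 word alone, among them MET17 and MET6, 3 were lower (median −0.27), and of the 7 with the Met31 and Met32 word alone, among them STR3, MHT1 and SAM3, 4 were lower (median −0.38). Of the 6 with neither word, 5 were tested, 1 was lower (SAM1) and 2 were higher (MET7 and MET31), with a median of 0.22, so its share of higher genes was near that of all features. With rapamycin the numbers lower and higher were 7 and 2, 2 and 2, 4 and 0, and 1 and 4, and the medians −0.31, −0.00, −0.37 and 0.66, in the same order of classes. In these classes 13 of 15, 4 of 6, 7 of 7 and 2 of 5 were lower on the protein-coding scale without rapamycin and 13, 4, 7 and 1 with it, and 1 gene, MET7 of the class with neither word, was higher in each. On the protein-coding scale 14.4% of all features were lower and 28.7% higher without rapamycin, and 18.1 and 30.7% with it. Without rapamycin the fold changes ran from −1.33 to 0.26 in the class with both words, from −1.32 to 0.22 with the Cbf1 word alone, from −1.18 to 0.02 with the Met31 and Met32 word alone and from −0.43 to 0.46 with neither. MET4, MET22, MET28, MET30, MET32 and MUP3 held both words and were not called lower without rapamycin on the spike-in scale. On the protein-coding scale MET22, MET28, MET30 and MUP3 were called lower without rapamycin, and MET4 and MET32 were not. In the pairs above, SAM2 held both words and SAM1 neither, SUL2 held both and SUL1 neither, and MHT1 held 2 Met31 and Met32 words and SAM4 neither, and in each of these pairs the ratio was lower in tagged cells. MMP1 held 2 Met31 and Met32 words and SAM3 held 1, while the MMP1 to SAM3 ratio was higher. MET32 held both words and MET31 neither, MUP3 held both and MUP1 the Met31 and Met32 word alone, and MET12 and MET13 each held the Met31 and Met32 word alone, and in these 3 pairs the strains overlapped.

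**Figure D5:**
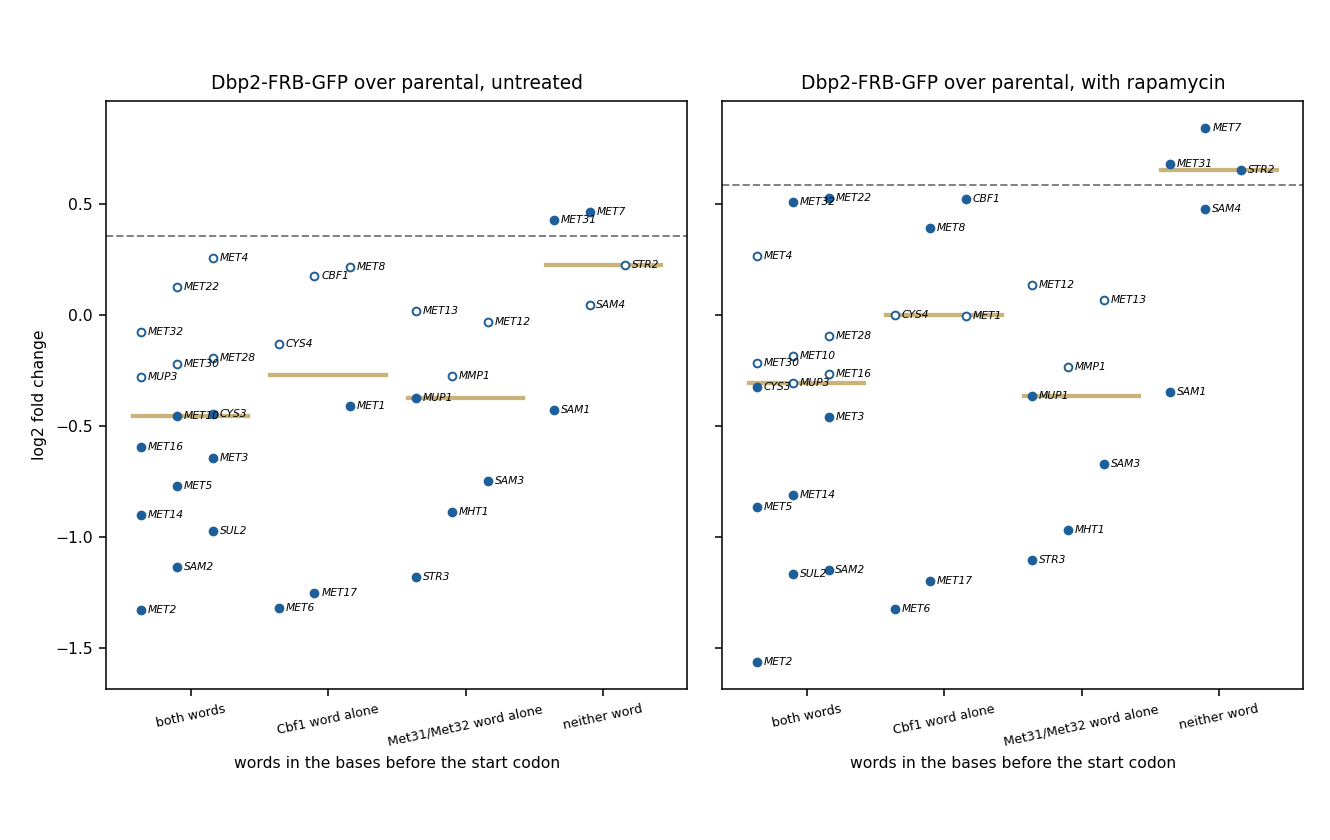
Log2 fold change of each tested gene, Dbp2-FRB-GFP over parental, by the words found in 500 bases before the start codon, without rapamycin (left) and with it (right). Filled points are genes with adjusted p under 0.05, thick lines are class medians and dashed lines the medians of all features; the class with neither word has the highest median in both (0.22 and 0.66).

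Around the pathway, 29 further genes were followed and 28 could be tested, PDC6 being under the filter. Without rapamycin 4 were lower and 5 higher (median 0.13), and with it 3 were lower and 14 higher (median 0.32), so a smaller share was called higher than the 43.7 and 70.5% of all features. Of all features 2.75% were called lower without rapamycin and 2.13% with it. On the protein-coding scale 12 neighbours were lower and 5 higher without rapamycin (median −0.12), where 14.4 and 28.7% of all features were called. With rapamycin 15 were lower and 4 higher on that scale (median −0.17), where 18.1 and 30.7% were called. On the spike-in scale the genes called lower were 2 of the 3 glutathione genes and the 2 genes that follow S-adenosylhomocysteine. GSH2, which encodes glutathione synthetase, was not called on this scale (−0.09 ± 0.14 and 0.20 ± 0.14). GSH1, encoding the first enzyme of glutathione synthesis from cysteine, was lower by −1.21 ± 0.14 (adjusted p = 8.41e-07) and −1.22 ± 0.14 (2.99e-07). OPT1, encoding a transporter of glutathione and other peptides, was lower by −0.70 ± 0.15 (0.000714) and −0.66 ± 0.15 (0.000624). SAH1, whose enzyme cleaves S-adenosylhomocysteine, was lower by −0.42 ± 0.14 (0.0188) and −0.33 ± 0.14 (0.0411), and ADO1, encoding adenosine kinase, by −0.35 ± 0.13 (0.0276) without rapamycin. With rapamycin ADO1 was not called (−0.25 ± 0.13, 0.0785), its interaction was not called either (0.10, 0.783), and on the protein-coding scale it was lower in both (−0.61 and −0.75). The SAH1 call without rapamycin was lost on leaving out replicate 2 of either untreated group (adjusted p up to 0.173), and that with rapamycin on leaving out either parental rapamycin replicate or tagged rapamycin replicate 2 (up to 0.311). The ADO1 call was lost without parental untreated replicate 2 or either tagged untreated replicate (up to 0.21).

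The genes called higher in both were JLP1 (0.78 ± 0.18 and 0.58 ± 0.18), which encodes a dioxygenase that frees sulfite from sulfonates, the cysteine transporter gene YCT1 (0.50 ± 0.15 and 0.64 ± 0.15), the spermine synthase gene SPE4 (0.61 ± 0.15 and 0.91 ± 0.15), HRT1 of the ubiquitin ligase (0.51 ± 0.15 and 0.69 ± 0.15) and GCN4 (0.60 ± 0.13 and 0.74 ± 0.13). Over all features 43.7% were called higher without rapamycin and 70.5% with it, with medians of 0.36 and 0.59. With rapamycin JLP1 and YCT1 lay near that median. Of the 5 methionine salvage genes, 5 were called higher with rapamycin, where 70.5% of all features were, and 0 without it, and none had a called interaction. Without parental rapamycin replicate 1 the number was 1, without parental rapamycin replicate 2 it was 3 and without tagged rapamycin replicate 1 it was 2. With rapamycin 1 of the 5 was higher and 1 lower on the protein-coding scale. There 30.7% of all features were higher and 18.1% lower with rapamycin, and 28.7% were higher without it. On that scale SPE4 (0.36 and 0.42), HRT1 (0.26 and 0.20) and GCN4 (0.35 and 0.24) were called higher in both comparisons, and JLP1 (0.55 and 0.12) and YCT1 (0.27 and 0.16) in the one without rapamycin. On the spike-in scale, the YCT1 and HRT1 calls without rapamycin were lost on leaving out parental replicate 1 or tagged replicate 1, or, for YCT1, tagged replicate 2 (adjusted p up to 0.115 and 0.0722), and the JLP1 call with rapamycin on leaving out replicate 1 of either group (up to 0.104).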

How the data were processed

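Total RNA depleted of rRNA was sequenced from TruSeq Stranded Total RNA libraries, per the labels' protocols. The submitters' processing notes name Trim Galore, HISAT2 2.2.0, featureCounts 2.0.0, DESeq2 and build R64, with no role stated here. The deposited values are a signal, the density of reads per nucleotide of a feature, in 8 libraries for 10799 yeast features and 92 spike-in RNAs, per the file headers. All library columns were used. For 10732 of 10891 features the values are whole reads (within 0.01 read) over a feature length and a library factor. When computed from the spike-in reads by the median of ratios, the same library factors were obtained.

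Densities plus a pseudocount of 0.00721 (5th percentile of positive values) were put on a log2 scale, on which fold changes of low genes are understated. Features with a mean under 0.0133 (10th percentile) and spike-ins were left out, which left 9656. A limma 3.58.1 fit with a mean trend (R 4.3.3) over all 8 libraries, with 4 residual and 18.0 prior degrees of freedom, gave 5 comparisons, with Benjamini-Hochberg adjustment over all features at 0.05. The fit was also run on simulated data with 200 features changed and no shift of the whole transcriptome. That setting differs from these data, so it does not measure the error of the calls here. Upstream words and coding identities were computed with Python 3.11.15 and Biopython 1.88 from the RefSeq genome of the same build. Named genes were all 34 members and 29 genes next to the pathway. Members, lists and words were chosen with earlier results of these data known.

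Alternatives were a pseudocount at the 1st percentile, no filter, scaling to protein-coding features or snoRNAs, quantile normalization, no trend, a replicate block, a fit of only the groups compared, leaving out each library, and, chosen after seeing the data, limma-voom on the recovered reads. Members had between 38 and 35346 reads in a library after the filter, and 9 members had at most 100 reads in some library.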

Additional observations from a re-analysis of the deposited data

How the results depend on the processing

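Over 33 genes, 5 comparisons and 17 alternatives, 2390 of 2805 fold changes kept their direction and their side of the threshold, 120 lost a call and 71 gained one in the same direction. A further 27 changed sign and were called either as reported or under the alternative, and 197 changed sign and were called in neither, of which 22 were without rapamycin, 6 with it, 39 for rapamycin in parental cells, 47 for rapamycin in tagged cells and 83 for the interaction. Without rapamycin the number of members lower in tagged cells went from 17 to 26 (protein-coding), 26 (snoRNAs) and 25 (quantile). The number higher went from 2 to 1 with a pseudocount at the 1st percentile, no filter, scaling to protein-coding features, quantile normalization or no trend, and to 0 with snoRNAs. With rapamycin the number lower went from 14 to 25 (protein-coding), 23 (snoRNAs) and 25 (quantile), and the number higher from 8 to 1, 0 and 1. For rapamycin in tagged cells the 4 higher became 2 with the 1st percentile pseudocount, 0 with no filter, each of the 3 scalings, no trend or the replicate block, and 9 with limma-voom, chosen after seeing the data. Leaving out 1 library gave 12 to 17 lower and 0 to 2 higher without rapamycin, 10 to 14 lower and 5 to 9 higher with it, and 0 to 15 higher for rapamycin in tagged cells. The cause of these moves was not tested.

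Of the sign changes with a call, those without rapamycin were MET22 (−0.13), MET13 (−0.23) and SAM4 (−0.20) on the protein-coding scale, MET13 (−0.63), MET7 (−0.18), SAM4 (−0.61) and MET31 (−0.21) on the snoRNA scale, and MET13 (−0.26) under quantile normalization. With rapamycin they were MET8 (−0.058), MET13 (−0.42), MET12 (−0.36), CYS4 (−0.49), SAM4 (−0.016) and MET4 (−0.22) on the protein-coding scale, MET8 (−0.22), MET22 (−0.14), MET13 (−0.60), CYS4 (−0.67), SAM4 (−0.19), MET32 (−0.10) and CBF1 (−0.14) on the snoRNA scale, and MET8 (−0.42), MET13 (−0.43), MET12 (−0.36), CYS4 (−0.49), MET4 (−0.25) and MET32 (−0.32) under quantile normalization.

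The labels number the replicates without saying that a number is shared between groups, and deviations of same-numbered libraries from their group means correlated at −0.134 to 0.151 over 9656 features in the 6 pairs of groups. With the replicate block 15 members were lower and 2 higher without rapamycin, 13 and 7 with it, and 0 and 0 for rapamycin in tagged cells. Low counts limit SUL1, SUL2, MET32, STR3, MET8, MET2, MET16, MHT1 and MET28, which had at most 100 reads in at least 1 library.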
